A study of Gallus gallus with 9 samples.

Results

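Primordial germ cells (PGCs) of the chicken, Gallus gallus, from which eggs and sperm descend, were profiled by poly(A) RNA sequencing, and the 3 libraries labelled LIN28A knockout were set directly against the 3 labelled LIN28B knockout, 6 of the 9 libraries of the series, across all genes. The other 3 libraries came from cells labelled wild type with a control vector. They were used to estimate the spread between libraries and are given beside the values of both knockouts. The knockout libraries are called LIN28A-labelled and LIN28B-labelled, since the transcripts of the targeted genes did not follow the labels in full and every direction given rests on those labels. The libraries were chosen by their genotype labels alone, and 15475 of 24356 listed genes had enough counts to be tested. The labels name no sex, line or culture of the cells, nor the way the genes were disrupted, and are silent on whether replicate libraries stem from separate cultures. The p-values therefore cover the spread between libraries alone, which may be technical.

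LIN28A and LIN28B are paralogous RNA-binding proteins with a cold-shock domain and zinc knuckles. Both are known for binding precursors of the let-7 microRNA family and blocking their maturation, and both also bind many messenger RNAs. In mammals LIN28A is known as a factor of pluripotent cells and of the founding of the germ line. The study's title places LIN28 in the upkeep of chicken PGCs. A direct comparison of both knockouts asks where cells labelled as lacking one paralogue differ from cells labelled as lacking the other.

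Library totals lay between 27.7 M and 32.2 M counts (M, mega). Counts were scaled to CPM, the counts per M counts of a library, at which 3 counts in a library stood for 0.0904 to 0.112 CPM. In each group the libraries numbered 1 and 2 were near each other, and the one numbered 3 was further off. For the 10151 genes whose average log2 CPM reached 3, libraries 1 and 2 differed by a root mean square of 0.137 (log2) in the LIN28A-labelled and 0.164 in the LIN28B-labelled libraries. Replicate 3 differed from them by 0.725 and 0.713 in the LIN28A-labelled and by 0.398 and 0.443 in the LIN28B-labelled libraries. Over the same genes, LIN28A minus LIN28B differences in replicates 1 and 2 and those in replicate 3 had the same sign in 57.1%, with r = 0.244 across genes, which are not independent replicates.

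LIN28A (ENSGALG00000036022), the gene named in the label of the first group, had 117, 109.5 and 17.7 CPM in the LIN28A-labelled libraries, against 173, 179 and 242 CPM in the LIN28B-labelled libraries, and 160.4, 144 and 244 CPM in control. The groups did not overlap, with LIN28A-labelled replicate 3 far below the others. The log2 fold change of LIN28A knockout over LIN28B knockout was -1.28 ± 0.54 (SE), and it missed the threshold, with an adjusted p = 0.253 by edgeR. LIN28B (ENSGALG00000026761) had 40.3, 41.8 and 38.0 CPM in the LIN28A-labelled libraries, against 55.0, 59.6 and 50.3 CPM in the LIN28B-labelled libraries, and 52.3, 45.4 and 61.9 CPM in control. Its transcript thus stood lowest in the LIN28A-labelled libraries and was not lower in the LIN28B-labelled libraries than in control, the reverse of the labels, with a difference of -0.46 ± 0.14 on the log2 scale that did not pass (edgeR adjusted p = 0.147). Transcript counts per gene do not show whether a small edit left the protein intact.

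edgeR's quasi-likelihood test called 80 genes at a Benjamini-Hochberg adjusted p under 0.05, or 0.517% of those tested. Of these, 58 (0.375%) were higher and 22 (0.142%) lower in the LIN28A-labelled libraries. The called genes did not overlap in CPM between the groups in any of the 80 cases. Of all tested genes 11.7% were higher and 12.6% lower without overlap, and genes that pass a test on the same values tend to separate. On the log2 scale 55 of the 80 differed by at least 1. Over all tested genes the median log2 fold change was 0.0039. At an unadjusted p under 0.05 stood 2779 genes (18.0%). The count of calls depended on single libraries: without LIN28A-labelled replicates 1, 2 and 3 it was 5, 4 and 474, without LIN28B-labelled replicates 1, 2 and 3 it was 0, 0 and 230, and without control replicates 1, 2 and 3 it was 9, 17 and 44. Beside the counts of 0, 1672 and 1747 genes had an unadjusted p under 0.05 without LIN28B-labelled replicates 1 and 2. No called gene kept its call in all 9 of these fits, and SERPINH1, PFKFB3, MEF2B and the gene with no symbol ENSGALG00000041459 kept it in 7. That gene had 94.8, 84.8 and 153 CPM in the LIN28A-labelled libraries, against 24.8, 22.7 and 24.5 CPM in the LIN28B-labelled libraries (edgeR adjusted p = 0.00706), and was picked after its values were seen. Each of the 80 genes kept its direction in every alternative fit that gave it a value.

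**Figure D1:**
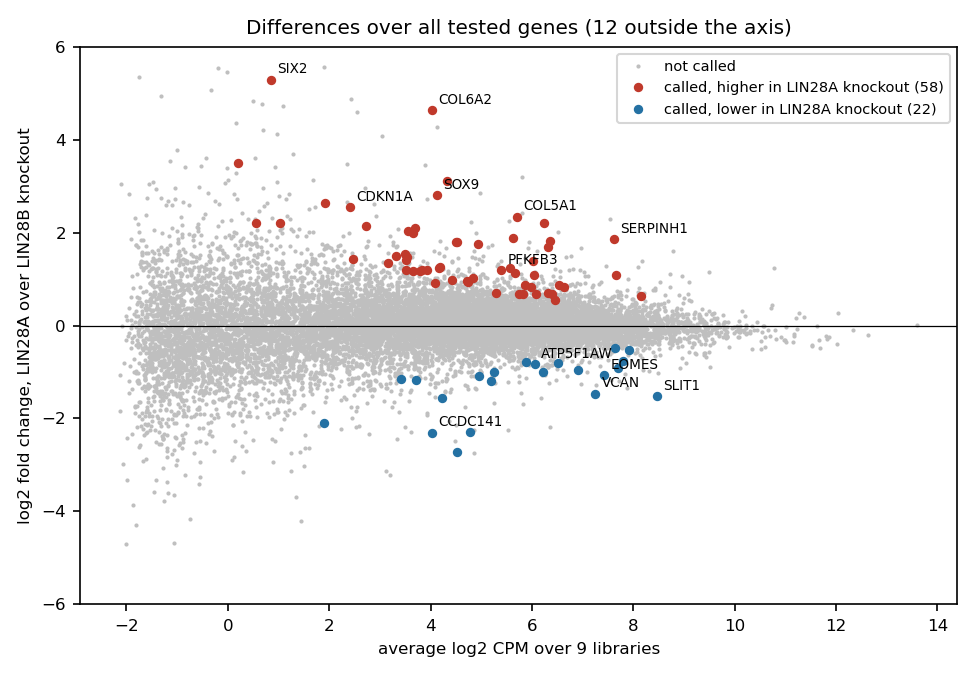
Log2 fold change of LIN28A over LIN28B knockout libraries (vertical axis) against the average log2 CPM over 9 libraries (horizontal axis) for all tested genes, 12 of which lie outside the vertical range. Red points are the 58 genes called higher in LIN28A-labelled libraries, blue points the 22 called lower, and grey points were not called. Collagen genes and SERPINH1 are among the red points, and SLIT1, VCAN and EOMES among the abundant blue points.

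Genes that build and fold collagen were among the called rises. Fibril-forming collagen V (COL5A1, COL5A2), the beaded-filament collagen VI (COL6A1, COL6A2) and SERPINH1, the collagen chaperone of the endoplasmic reticulum, all rose in the LIN28A-labelled libraries, as did COL24A1 and COL22A1. SERPINH1 (ENSGALG00000011214) had 293, 288 and 380.1 CPM in the LIN28A-labelled libraries, against 79.2, 74.8 and 109.7 CPM in the LIN28B-labelled libraries. Every LIN28A-labelled library thus stood above every LIN28B-labelled one by a wide gap, and control lay between them at 168, 163 and 217 CPM. Its log2 fold change was 1.87 ± 0.19 (SE, edgeR adjusted p = 0.00706), a fold of 3.64. COL5A2 (ENSGALG00000031112), with 122, 122 and 160.2 CPM in the LIN28A-labelled libraries, against 32.4, 37.5 and 45.0 CPM in the LIN28B-labelled libraries, showed the same separation in all 3 replicates, and its log2 fold change was 1.81 ± 0.21 (edgeR adjusted p = 0.0138).

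COL5A1, COL6A1 and COL6A2 stood highest in replicates 1 and 2. COL5A1 (ENSGALG00000002546) had 137, 133 and 56.4 CPM in the LIN28A-labelled libraries, against 21.2, 23.7 and 19.4 CPM in the LIN28B-labelled libraries, or 2.35 ± 0.30 on the log2 scale (edgeR adjusted p = 0.0152). COL6A1 (ENSGALG00000005974) had 57.6, 66.4 and 13.6 CPM in the LIN28A-labelled libraries, against 5.74, 5.69 and 4.58 CPM in the LIN28B-labelled libraries, or 3.10 ± 0.48 on the log2 scale (edgeR adjusted p = 0.0342). For both chains LIN28A-labelled replicate 3 was the lowest of its group, yet above all LIN28B-labelled libraries. COL6A2 (ENSGALG00000039216) had 53.4, 55.3 and 6.99 CPM in the LIN28A-labelled libraries, against 1.46, 2.58 and 0.602 CPM in the LIN28B-labelled libraries, with a difference of 4.64 ± 0.77 on the log2 scale (edgeR adjusted p = 0.0399), and here LIN28A-labelled replicate 3 lay within the control range of 6.23 to 10.6 CPM. DDR2 (ENSGALG00000039322), a receptor tyrosine kinase that binds fibrillar collagen, had 49.2, 44.2 and 31.6 CPM in the LIN28A-labelled libraries, against 10.5, 8.63 and 16.6 CPM in the LIN28B-labelled libraries and rose by 1.80 ± 0.29 on the log2 scale (edgeR adjusted p = 0.0355). It is in no list and came in through the rule for the 12 largest rises.

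Both other called collagen genes did not lean on those replicates. COL24A1 (ENSGALG00000006864), a fibril-forming collagen, had 36.1, 36.7 and 77.0 CPM in the LIN28A-labelled libraries, against 12.9, 13.7 and 17.6 CPM in the LIN28B-labelled libraries, or 1.76 ± 0.30 on the log2 scale (edgeR adjusted p = 0.0407), and was highest in LIN28A-labelled replicate 3. COL22A1 (ENSGALG00000038022), a collagen of tissue junctions, had 13.3, 13.0 and 13.5 CPM in the LIN28A-labelled libraries, against 5.09, 6.37 and 4.24 CPM in the LIN28B-labelled libraries, or 1.34 ± 0.22 on the log2 scale (edgeR adjusted p = 0.0399), with nearly equal values in the LIN28A-labelled libraries. These 2 stand in no list and were picked after their values were seen.

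Of the matrix and adhesion list, 70 members were tested. With edgeR 5 were called higher and 1 lower, beside 0.375% and 0.142% of all genes. Above 0 lay 46 members, beside 50.4% of all genes, with a median log2 fold change of 0.28 against 0.0039 over all genes. Without LIN28A-labelled replicate 3, 19 were called higher and 2 lower, where 1.93% and 1.07% of all genes tested in that fit were. CPM did not overlap between the groups for 20 higher and 6 lower members, where 11.7% and 12.6% of all tested genes did so. The member called lower was VCAN (ENSGALG00000015624), the large proteoglycan versican, with 86.4, 89.0 and 52.9 CPM in the LIN28A-labelled libraries, against 211, 215 and 205 CPM in the LIN28B-labelled libraries, or -1.47 ± 0.22 on the log2 scale (edgeR adjusted p = 0.033). Every LIN28B-labelled value of VCAN stood far above every LIN28A-labelled one.

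Collagen I did not pass. COL1A1 (ENSGALG00000041555) had 589.9, 517 and 73.3 CPM in the LIN28A-labelled libraries, against 89.8, 95.3 and 54.1 CPM in the LIN28B-labelled libraries, which put LIN28A-labelled replicate 3 within the LIN28B-labelled range, and its log2 fold change was 2.30 ± 0.63 (edgeR adjusted p = 0.12). COL1A2 (ENSGALG00000009641) had 534, 551 and 37.6 CPM in the LIN28A-labelled libraries, against 205, 158 and 719.8 CPM in the LIN28B-labelled libraries, with a difference of 0.05 ± 0.88 on the log2 scale (edgeR adjusted p = 0.98). Its order in replicates 1 and 2 was thus turned round in replicate 3, and its sign depended on which library was left out. Other members that stood highest in LIN28A-labelled replicates 1 and 2 were THBS2, thrombospondin 2, at 18.9, 21.4 and 3.27 CPM in the LIN28A-labelled libraries, against 1.62, 2.29 and 1.67 CPM in the LIN28B-labelled libraries (edgeR adjusted p = 0.0632), and LOXL2, a collagen cross-linking oxidase, at 24.5, 23.7 and 2.69 CPM in the LIN28A-labelled libraries, against 2.24, 3.58 and 2.44 CPM in the LIN28B-labelled libraries (edgeR adjusted p = 0.108). COL1A2, THBS2 and LOXL2 were picked after their values were seen. The collagen IV chains COL4A1 and COL4A2 of the list, which were not called, also turned round between same-numbered libraries. Their LIN28A minus LIN28B differences in log2 CPM were 0.841 and 0.591 in the mean of replicates 1 and 2. In replicate 3 they were -0.924 and -0.819.

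Fibroblast markers are given beside these genes. Of 24 in the files, none was at 0 in all libraries of either group, 23 were tested, and 12 of those also stand in the matrix list (52.2% of the marker list, 17.1% of the matrix list). Their summed level was 2350, 2310 and 1010 CPM in the LIN28A-labelled libraries, against 1450, 1350 and 2270 CPM in the LIN28B-labelled libraries and 1570, 1560 and 2270 CPM in control. The sum was thus higher in LIN28A-labelled replicates 1 and 2 and lower in replicate 3. The 3 called markers were COL5A1, COL6A1 and COL6A2, all higher, beside 0.375% of all genes. The median of the list was 0.05, and same-numbered libraries gave 0.59, 0.17 and -0.29. Before adjustment (p under 0.05) 8 were higher and 3 lower, beside 10.0% and 7.96% of all genes. DESeq2 called 7 higher and 1 lower (2.74% and 1.89% of all genes). Here and below, DESeq2 shares are of the 20488 genes with a DESeq2 p-value, some with too few counts for edgeR. List members were counted among the 15475 genes tested with edgeR, so the 2 bases differ. CPM did not overlap for 5 higher and 3 lower markers, where 11.7% and 12.6% of all tested genes did so. The part of fibroblast-like cells in the collagen result was not tested, and in bulk RNA fewer cells of a type and less RNA per cell cannot be told apart.

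**Figure D2:**
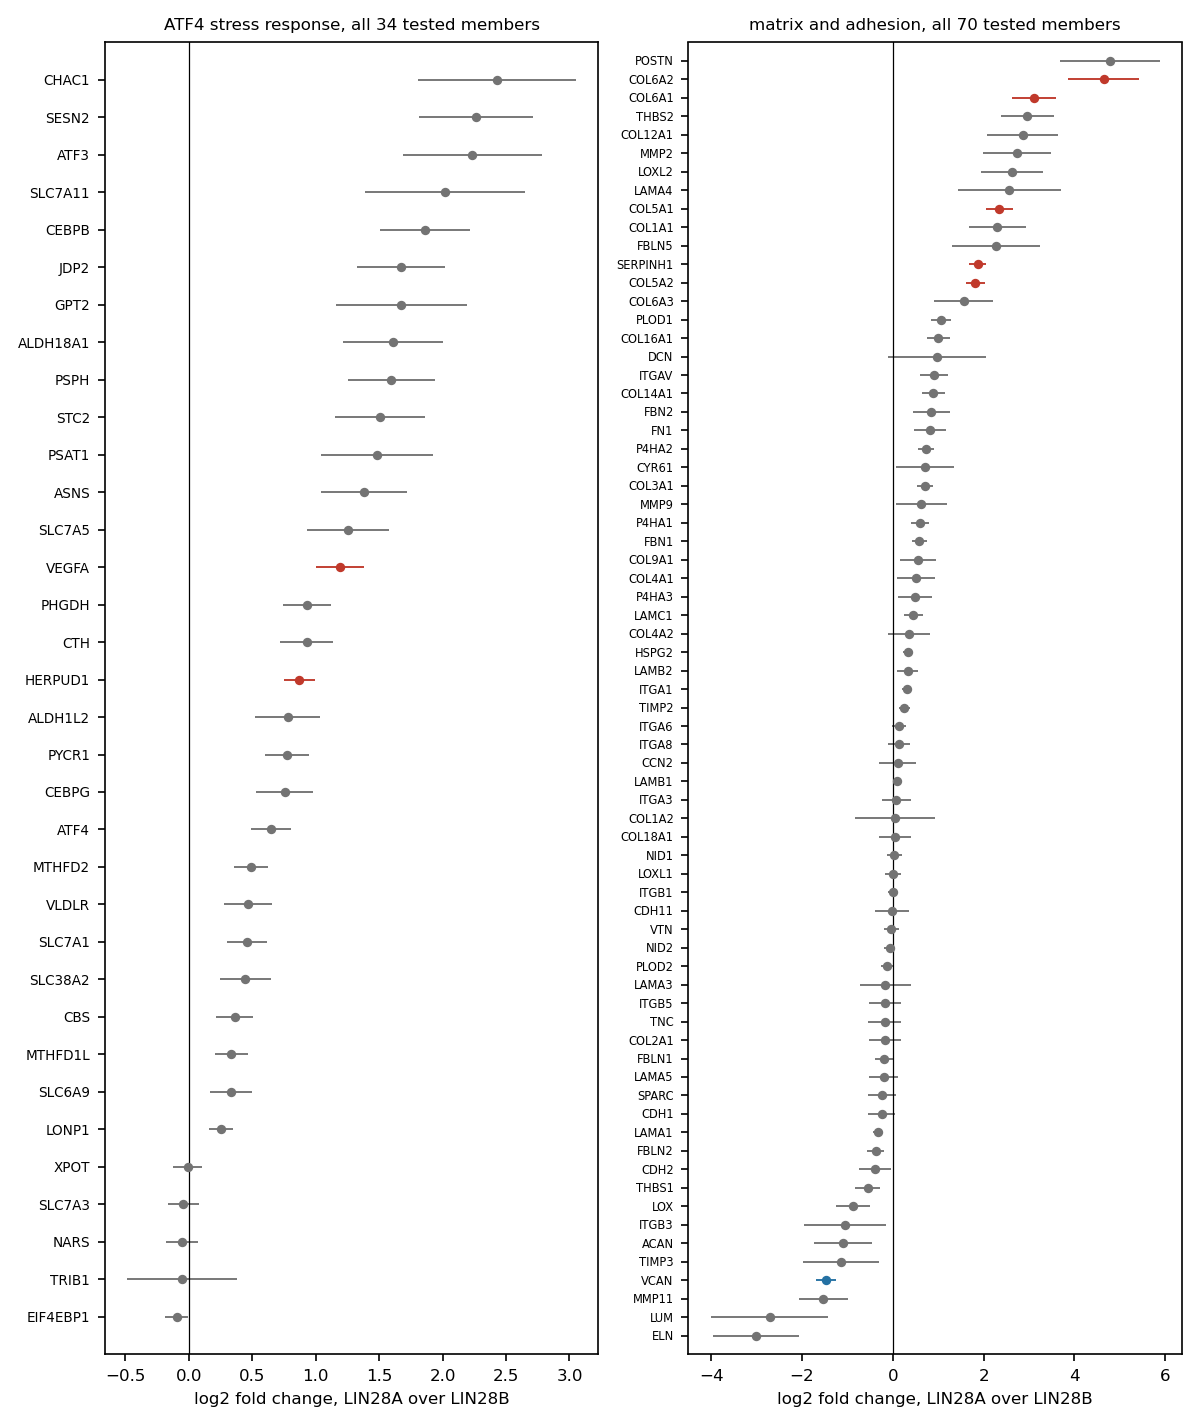
Log2 fold change of LIN28A over LIN28B knockout libraries for each tested member of the ATF4 stress list (left, 34 genes) and of the matrix and adhesion list (right, 70 genes), with bars for 1 standard error. Red points were called higher and blue points lower in LIN28A-labelled libraries. Of the ATF4 list 29 members lie above 0, and in the matrix list 46 do, COL6A2 with 4.64 being the highest called one.

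Members of the ATF4 stress list were mostly higher in the LIN28A-labelled libraries, though few passed alone. ATF4 is the transcription factor of the integrated stress response, known for turning on amino acid synthesis, amino acid import and tRNA charging when translation initiation is held back. Of 34 tested members 2 were called, both higher, beside 0.375% of all genes. At an unadjusted p under 0.05 stood 27 higher and 0 lower, beside 10.0% and 7.96% of all genes. Above 0 lay 29 members, beside 50.4% of all genes, with a median log2 fold change of 0.83. DESeq2, which called 4.63% of all genes, called 20 members higher and 0 lower (2.74% and 1.89% of all genes). The median difference was 0.69, 0.86 and 0.83 between same-numbered libraries, so that all 3 replicates showed it. CPM did not overlap for 26 members, all higher in the LIN28A-labelled libraries, where 11.7% of all tested genes were. Earlier results of these data had already shown this list to differ, so its counts are a description.

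Relative to the control mean, the median of the ATF4 list was 0.03, 0.03 and 0.51 in the LIN28A-labelled libraries and -0.73, -0.87 and -0.30 in the LIN28B-labelled libraries. LIN28A-labelled replicates 1 and 2 thus stood at the control level, replicate 3 above it, and all LIN28B-labelled libraries below it. The called members were HERPUD1 (ENSGALG00000001220), a membrane protein of endoplasmic reticulum-associated degradation, and VEGFA (ENSGALG00000010290), the vascular growth factor. HERPUD1 had 73.9, 76.9 and 69.9 CPM in the LIN28A-labelled libraries, against 43.2, 34.8 and 42.7 CPM in the LIN28B-labelled libraries, or 0.87 ± 0.12 on the log2 scale (edgeR adjusted p = 0.0254). VEGFA had 20.1, 21.1 and 18.0 CPM in the LIN28A-labelled libraries, against 8.53, 7.34 and 9.99 CPM in the LIN28B-labelled libraries, or 1.19 ± 0.19 on the log2 scale (edgeR adjusted p = 0.0347). In both, all LIN28A-labelled values lay within a narrow range above the LIN28B-labelled ones.

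Serine, asparagine and proline synthesis enzymes showed the pattern without passing. PHGDH, the first enzyme of serine synthesis, had 596, 567 and 968 CPM in the LIN28A-labelled libraries, against 378, 347 and 393 CPM in the LIN28B-labelled libraries (edgeR adjusted p = 0.0638). PSPH, the last one, had 82.8, 79.6 and 153 CPM in the LIN28A-labelled libraries, against 28.3, 21.8 and 54.1 CPM in the LIN28B-labelled libraries (edgeR adjusted p = 0.0715). Both enzymes separated the groups fully, as did asparagine synthetase ASNS, with 269, 275 and 666 CPM in the LIN28A-labelled libraries, against 144, 122 and 199 CPM in the LIN28B-labelled libraries, or 1.38 ± 0.34 on the log2 scale (edgeR adjusted p = 0.0958). ALDH18A1, which starts proline synthesis from glutamate, had 463, 474 and 995 CPM in the LIN28A-labelled libraries, against 165, 127 and 340.4 CPM in the LIN28B-labelled libraries (edgeR adjusted p = 0.0958). For ALDH18A1 and ASNS LIN28A-labelled replicate 3 was the highest of all 9 libraries. ATF4 itself had 524, 527 and 614 CPM in the LIN28A-labelled libraries, against 308, 297 and 455 CPM in the LIN28B-labelled libraries, or 0.65 ± 0.16 on the log2 scale (edgeR adjusted p = 0.0958), and its separation was the narrowest of these.

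Regulators and feedback genes of this response also stood apart. CHAC1, a glutathione-degrading enzyme induced by ATF4 in mammals, had 59.5, 53.1 and 150.3 CPM in the LIN28A-labelled libraries, against 6.72, 7.62 and 34.4 CPM in the LIN28B-labelled libraries, or 2.43 ± 0.62 on the log2 scale (edgeR adjusted p = 0.105). SESN2, a sestrin that restrains mTORC1 signalling, had 54.4, 52.3 and 127 CPM in the LIN28A-labelled libraries, against 11, 9.77 and 27.8 CPM in the LIN28B-labelled libraries (edgeR adjusted p = 0.0632). CEBPB, a bZIP transcription factor, had 55.2, 49.6 and 125 CPM in the LIN28A-labelled libraries, against 18.6, 15.5 and 29.3 CPM in the LIN28B-labelled libraries (edgeR adjusted p = 0.0591). In these genes LIN28B-labelled replicate 3 was the highest of its group, and LIN28A-labelled replicate 3 again exceeded replicates 1 and 2. The genes of these paragraphs other than HERPUD1, VEGFA, ASNS and ATF4 were picked after their values were seen.

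A cell cycle inhibitor and a death receptor, both known targets of p53 in mammals, rose in the LIN28A-labelled libraries. CDKN1A (ENSGALG00000028318), the cyclin-dependent kinase inhibitor p21, had 11.8, 10.6 and 10.99 CPM in the LIN28A-labelled libraries, against 2.24, 1.54 and 1.87 CPM in the LIN28B-labelled libraries, or 2.56 ± 0.38 on the log2 scale (edgeR adjusted p = 0.0286). TNFRSF10B (ENSGALG00000000452), a receptor of the death ligand TRAIL, had 11.6, 13.4 and 11.8 CPM in the LIN28A-labelled libraries, against 2.21, 1.79 and 4.34 CPM in the LIN28B-labelled libraries, or 2.14 ± 0.37 on the log2 scale (edgeR adjusted p = 0.0434). Control lay at 2.18, 1.58 and 4.48 CPM for CDKN1A, on the side of the LIN28B-labelled libraries. PMAIP1 (ENSGALG00000035325), the BH3-only protein NOXA, was called as well, with 3.07, 2.01 and 2.79 CPM in the LIN28A-labelled libraries, against 0.519, 0.609 and 0.568 CPM in the LIN28B-labelled libraries (edgeR adjusted p = 0.0434). It stands outside the naming rule and was chosen after its values were seen.

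Other p53 targets did not pass: FAS, a death receptor, had 5.72, 6.03 and 6.06 CPM in the LIN28A-labelled libraries, against 2.82, 2.33 and 1.40 CPM in the LIN28B-labelled libraries (edgeR adjusted p = 0.103). EDA2R, a receptor of ectodysplasin A2, had 25.3, 26.6 and 29.6 CPM in the LIN28A-labelled libraries, against 4.41, 5.76 and 13.0 CPM in the LIN28B-labelled libraries (edgeR adjusted p = 0.0926). Both separated the groups fully and were picked after their values were seen. Of 41 tested members of the p53 and apoptosis list, 2 were called, both higher, beside 0.375% of all genes. In the list 26 lay above 0, and the median was 0.14. Before adjustment (p under 0.05) 7 were higher and 2 lower, beside 10.0% and 7.96% of all genes. DESeq2 called 5 higher and 1 lower (2.74% and 1.89% of all genes). CPM did not overlap for 9 higher and 4 lower members, where 11.7% and 12.6% of all tested genes did so. Same-numbered libraries gave medians of -0.05, -0.05 and 0.35, above 0 in replicate 3, while CDKN1A and TNFRSF10B differed in all 3.

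Among metabolic genes, PFKFB3 gave one of the smallest p-values of the whole table. PFKFB3 (ENSGALG00000040369), the kinase that makes the glycolysis activator fructose-2,6-bisphosphate, had 51.6, 51.7 and 56.2 CPM in the LIN28A-labelled libraries, against 23.8, 22.2 and 23.5 CPM in the LIN28B-labelled libraries, or 1.20 ± 0.11 on the log2 scale (edgeR adjusted p = 0.00706). Control stood at 47.9, 52.5 and 46.5 CPM, overlapping the LIN28A-labelled range, and PFKFB3 was also called in LIN28B-labelled libraries against control (edgeR adjusted p = 0.0230), a comparison that shares the LIN28B-labelled libraries. Of 21 tested glycolysis members PFKFB3 alone was called, beside 0.375% of all genes called higher. The list had a median of 0.27 and same-numbered medians of 0.04, 0.16 and 0.48. Before adjustment (p under 0.05) 8 were higher and 1 lower, beside 10.0% and 7.96% of all genes. DESeq2 called 6 higher and 0 lower (2.74% and 1.89% of all genes). CPM did not overlap for 8 higher and 4 lower members, where 11.7% and 12.6% of all tested genes did so. Lactate dehydrogenase LDHA had 1657, 1722 and 4537 CPM in the LIN28A-labelled libraries, against 1612, 1115 and 636 CPM in the LIN28B-labelled libraries (edgeR adjusted p = 0.177), with LIN28B-labelled replicate 1 close to LIN28A-labelled replicates 1 and 2. LDHA was picked after its values were seen. Of 25 tested hypoxia and mitophagy members VEGFA alone was called, beside 0.375% of all genes called higher, and the median was 0.20. Before adjustment 10 were higher and 1 lower, beside the same shares of all genes. DESeq2 called 6 higher and 0 lower (2.74% and 1.89% of all genes). CPM did not overlap for 11 higher and 5 lower members, where 11.7% and 12.6% of all tested genes did so.

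Oxidative phosphorylation genes leaned lower. Of 69 tested members of the oxidative phosphorylation list 1 was called, lower, beside 0.142% of all genes. Below 0 lay 51 members, where 50.4% of all genes lay above 0, and the median was -0.17. CPM did not overlap for 21 members, all lower in the LIN28A-labelled libraries, where 12.6% of all tested genes were. The called member was ATP5F1AW (ENSGALG00000043758), an ATP synthase alpha subunit encoded on the W chromosome, with 40.0, 40.5 and 40.1 CPM in the LIN28A-labelled libraries, against 66.2, 70.7 and 78.3 CPM in the LIN28B-labelled libraries, or -0.84 ± 0.10 on the log2 scale (edgeR adjusted p = 0.0152). Its Z-linked copy ATP5F1AZ had 626, 638 and 523 CPM in the LIN28A-labelled libraries, against 850.1, 807 and 708 CPM in the LIN28B-labelled libraries (edgeR adjusted p = 0.116), and reads of near-identical copies can be split between them by the counting. HINTW, the only other W-linked gene of the list that was tested, had 367, 377 and 164 CPM in the LIN28A-labelled libraries, against 604, 523 and 580.4 CPM in the LIN28B-labelled libraries (edgeR adjusted p = 0.129). Of the 3 genes, only ATP5F1AW passed. ATP5F1AZ and HINTW were picked after their values were seen.

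Outside the lists, calls of metabolic genes went both ways, and the 4 given here were chosen after their values were seen. COQ8A, a mitochondrial protein needed for coenzyme Q synthesis, was called higher, with 251, 258 and 269 CPM in the LIN28A-labelled libraries, against 127, 117 and 123 CPM in the LIN28B-labelled libraries, or 1.09 ± 0.14 on the log2 scale (edgeR adjusted p = 0.0193). Called lower were the next 3. MDH2, mitochondrial malate dehydrogenase, had 202, 196 and 177 CPM in the LIN28A-labelled libraries, against 272, 269 and 282 CPM in the LIN28B-labelled libraries, or -0.52 ± 0.09 on the log2 scale (edgeR adjusted p = 0.0434). CISD1, an iron-sulfur protein of the outer mitochondrial membrane, had 160.1, 164 and 161 CPM in the LIN28A-labelled libraries, against 237, 224 and 218 CPM in the LIN28B-labelled libraries (edgeR adjusted p = 0.0468). AHCY, which clears S-adenosylhomocysteine after methylation reactions, had 173, 179 and 134 CPM in the LIN28A-labelled libraries, against 279, 301 and 245 CPM in the LIN28B-labelled libraries (edgeR adjusted p = 0.0428). In MDH2, CISD1 and AHCY the groups stood apart by a modest amount with little spread within each.

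**Figure D3:**
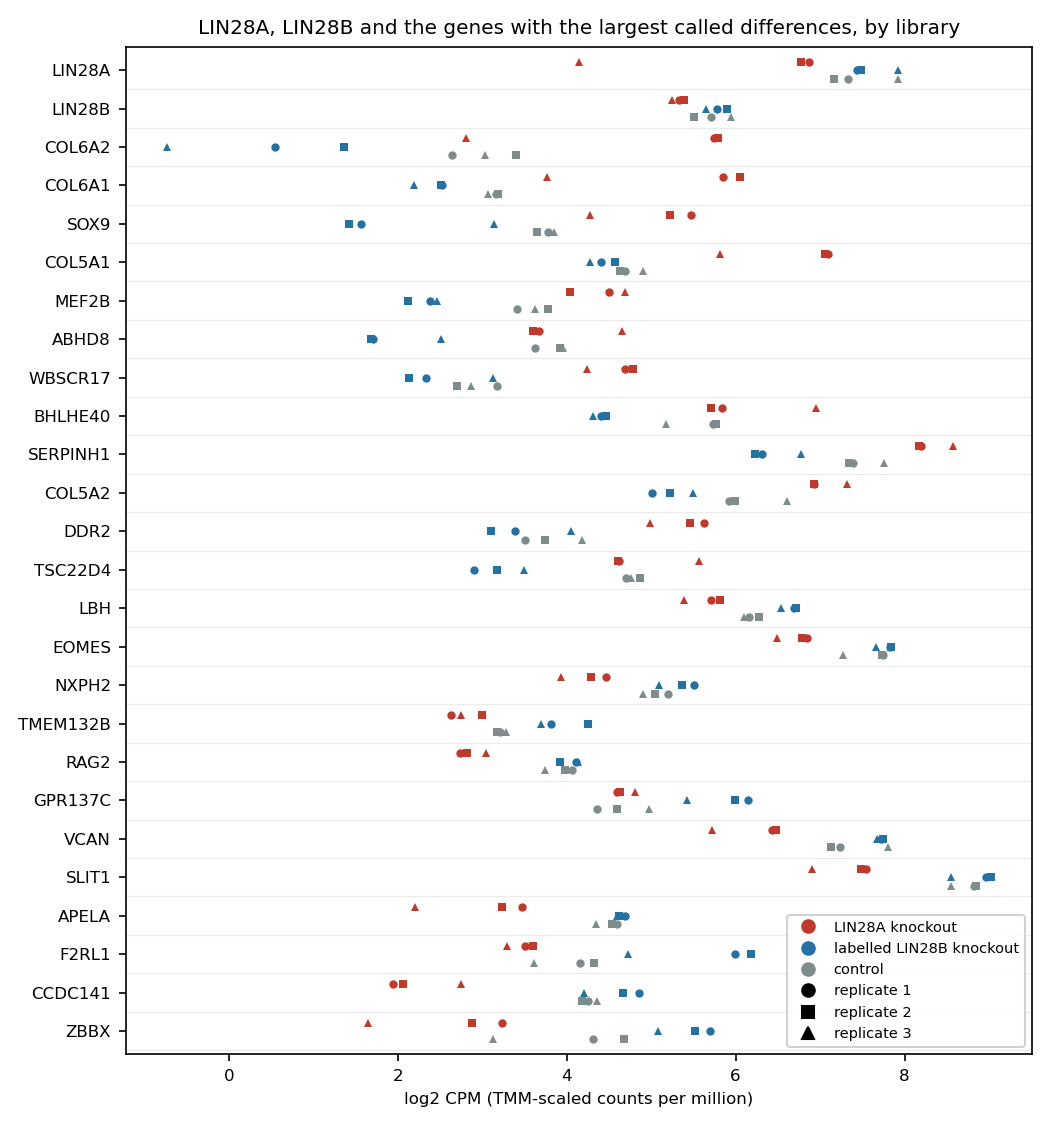
Log2 CPM of LIN28A, LIN28B and the called genes with the 12 largest rises and the 12 largest falls by the naming rule, 1 point per library, with LIN28A-labelled libraries in red, LIN28B-labelled in blue and control in grey, and shapes for replicate numbers. In each of the 24 called genes the red points lie on 1 side of all blue points, and the red triangle (replicate 3) stands apart for COL6A2, COL6A1 and COL5A1.

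Transcription factors made up part of the other large rises. SOX9 (ENSGALG00000004386), a factor of cartilage and of Sertoli cell fate, had 44.5, 37.5 and 19.4 CPM in the LIN28A-labelled libraries, against 2.95, 2.69 and 8.82 CPM in the LIN28B-labelled libraries, or 2.81 ± 0.47 on the log2 scale (edgeR adjusted p = 0.0399), with control between the groups at 13.7, 12.6 and 14.4 CPM. MEF2B (ENSGALG00000037558), a MADS-box factor, had 22.7, 16.5 and 25.7 CPM in the LIN28A-labelled libraries, against 5.22, 4.37 and 5.51 CPM in the LIN28B-labelled libraries, or 2.101 ± 0.22 on the log2 scale (edgeR adjusted p = 0.00706). BHLHE40 (ENSGALG00000008308), a basic helix-loop-helix repressor that responds to hypoxia and to the circadian clock, had 57.2, 52.5 and 124 CPM in the LIN28A-labelled libraries, against 21.3, 22.2 and 19.9 CPM in the LIN28B-labelled libraries (log2 fold change 1.88 ± 0.31, edgeR adjusted p = 0.0399). For MEF2B the groups differed by a similar amount in all replicates, whereas BHLHE40 stood highest in LIN28A-labelled replicate 3.

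The remaining large rises were TSC22D4, ABHD8 and WBSCR17. TSC22D4 (ENSGALG00000027069), a leucine zipper protein of the TSC22 family, had 24.6, 24.4 and 47.4 CPM in the LIN28A-labelled libraries, against 7.495, 9.06 and 11.3 CPM in the LIN28B-labelled libraries (log2 fold change 1.79 ± 0.27, edgeR adjusted p = 0.033). ABHD8 (ENSGALG00000036297) had 12.7, 12.1 and 25.1 CPM in the LIN28A-labelled libraries, against 3.28, 3.22 and 5.71 CPM in the LIN28B-labelled libraries (log2 fold change 2.03 ± 0.34, edgeR adjusted p = 0.0399). For both, control lay beside LIN28A-labelled replicates 1 and 2. WBSCR17 (ENSGALG00000001130), a glycosyltransferase-like protein of the mucin-type family, had 25.7, 27.6 and 18.8 CPM in the LIN28A-labelled libraries, against 5.06, 4.40 and 8.76 CPM in the LIN28B-labelled libraries (log2 fold change 1.99 ± 0.29, edgeR adjusted p = 0.0278), and its control values of 9.004, 6.53 and 7.31 CPM lay nearer the LIN28B-labelled libraries. Smaller called rises with a list membership were LCP1, an actin-bundling protein counted among leukocyte markers, by 1.49 ± 0.23 (edgeR adjusted p = 0.0342), and SFRP4, a secreted WNT antagonist, by 1.43 ± 0.25 (edgeR adjusted p = 0.0411).

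LCP1 was 1 of 8 tested leukocyte markers and the only called one, beside 0.375% of all genes called higher. The summed level of that list was 64.0, 72.9 and 103 CPM in the LIN28A-labelled libraries, against 57.5, 61.0 and 59.2 CPM in the LIN28B-labelled libraries. None of the 10 leukocyte markers in the files was at 0 in all libraries of a group. Whether other cells had a part in the LCP1 value was not tested.

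Guidance and migration genes were mostly lower in the LIN28A-labelled libraries. SLIT1 (ENSGALG00000042871), a secreted ligand of ROBO receptors, had 187, 178 and 120.1 CPM in the LIN28A-labelled libraries, against 498, 519.5 and 375 CPM in the LIN28B-labelled libraries, or -1.52 ± 0.19 on the log2 scale (edgeR adjusted p = 0.0152). Control stood at 453, 459.8 and 375 CPM, close to the LIN28B-labelled libraries. CXCR4 (ENSGALG00000012357), the chemokine receptor that guides migrating PGCs towards the gonad, had 13.7, 14.8 and 9.16 CPM in the LIN28A-labelled libraries, against 39.8, 36.3 and 20.5 CPM in the LIN28B-labelled libraries, a difference of -1.36 ± 0.30 on the log2 scale that did not pass (edgeR adjusted p = 0.0747), although the groups did not overlap. Of 39 tested members SLIT1 alone was called, beside 0.142% of all genes called lower. Below 0 lay 31 members, where 50.4% of all genes lay above 0. The median was -0.31, with same-numbered medians of -0.38, -0.44 and -0.81. CPM did not overlap for 14 lower members and 1 higher one, where 12.6% and 11.7% of all tested genes did so. The ROBO receptors had smaller differences, ROBO1 with -0.44 ± 0.14 (edgeR adjusted p = 0.157) and ROBO2 with -0.50 ± 0.14 (edgeR adjusted p = 0.135) on the log2 scale. Both receptors were picked after their values were seen.

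Genes of early mesoderm and endoderm were mostly lower too, with 1 call. EOMES (ENSGALG00000027247), a T-box factor of mesendoderm, had 115, 111 and 89.5 CPM in the LIN28A-labelled libraries, against 227, 229.5 and 203 CPM in the LIN28B-labelled libraries, or -1.06 ± 0.15 on the log2 scale (edgeR adjusted p = 0.0254). It was the only called one of 37 tested members, beside 0.142% of all genes called lower. Of the 37, 26 lay below 0, where 50.4% of all genes lay above 0, and the median was -0.37. An unadjusted p under 0.05 was reached by 3 higher and 11 lower (10.0% and 7.96% of all genes). DESeq2 called 1 higher and 8 lower (2.74% and 1.89% of all genes). CPM did not overlap for 2 higher and 14 lower members, where 11.7% and 12.6% of all tested genes did so. Same-numbered libraries, which are not read as pairs, gave medians of -0.66, -0.64 and -0.77. Relative to the control mean, the list median was -0.159, -0.097 and -0.533 in the LIN28A-labelled and 0.535, 0.505 and 0.203 in the LIN28B-labelled libraries. The control libraries themselves stood at 0.406, 0.199 and -0.812, so control replicate 3 lay below every LIN28A-labelled library. The T-box factor TBX6 had 185, 185 and 113 CPM in the LIN28A-labelled libraries, against 342, 334 and 248 CPM in the LIN28B-labelled libraries (edgeR adjusted p = 0.0772), and the mesoderm factor TBXT (brachyury) had 7.80, 5.09 and 2.27 CPM in the LIN28A-labelled libraries, against 20.3, 20.2 and 14.5 CPM in the LIN28B-labelled libraries (edgeR adjusted p = 0.182). TBX6 and TBXT were picked after their values were seen.

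CER1 of the activin, nodal and BMP list and HAND1 of the mesoderm and endoderm list were not detected at all in the LIN28A-labelled libraries. CER1 (ENSGALG00000005434), a secreted antagonist of nodal, BMP and WNT ligands, had 0 counts in all 3 of them, against 4.48, 2.83 and 1.97 CPM in the LIN28B-labelled libraries. Against a floor of 3 counts over the LIN28A-labelled group (0.0316 CPM), the pooled LIN28B-labelled level of 3.11 CPM makes CER1 at least 98.6-fold lower in LIN28A-labelled libraries, yet it did not pass (edgeR adjusted p = 0.056). HAND1 (ENSGALG00000035104), a mesodermal helix-loop-helix factor, likewise had 0 counts there, against 2.40, 2.15 and 0.334 CPM in the LIN28B-labelled libraries, at least 51.4-fold lower over the pooled counts (edgeR adjusted p = 0.0958). The floor covers counting error only. Control held both genes in every library, with its lowest values in replicate 3, CER1 at 0.112 CPM and HAND1 at 0.0746 CPM. HAND1 was chosen after its values were seen.

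Endothelial and epithelial markers lay mostly below 0 beside these genes. Of 13 tested endothelial markers 10 lay below 0, and the median was -0.65, with same-numbered medians of -0.44, -0.64 and -1.31. In that list, 0 passed with edgeR, while 1 higher and 2 lower had p under 0.05 before adjustment (10.0% and 7.96% of all genes). DESeq2 called 1 higher and 1 lower (2.74% and 1.89% of all genes), and limma voom 1 higher and 4 lower (18.7% and 18.8%). The summed level was 77.3, 77.8 and 21.2 CPM in the LIN28A-labelled libraries, against 89.2, 103 and 72.9 CPM in the LIN28B-labelled libraries and 66.1, 60.3 and 28.5 CPM in control, so that LIN28A-labelled replicate 3 and control replicate 3 were lowest. CDH5, the cadherin of endothelial junctions, had 0 counts in all LIN28A-labelled libraries and too few elsewhere to be tested, and SOX7 and SOX18 also stand in the mesoderm and endoderm list. KDR, a receptor of VEGF, had 0.783, 0.366 and 0.276 CPM in the LIN28A-labelled libraries, against 3.41, 2.58 and 1.84 CPM in the LIN28B-labelled libraries (log2 fold change -2.44 ± 0.57, edgeR adjusted p = 0.0914). ERG, an ETS factor, stood highest in LIN28A-labelled replicates 1 and 2, with 7.74, 7.56 and 0.138 CPM in the LIN28A-labelled libraries, against 1.17, 0.680 and 0.468 CPM in the LIN28B-labelled libraries (log2 fold change 2.73 ± 1.02, edgeR adjusted p = 0.214).

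Of 7 tested epithelial markers 6 lay below 0, with a median of -0.38 and same-numbered medians of -0.42, -0.42 and -0.35. Here 0 passed with edgeR, while 0 higher and 2 lower had p under 0.05 before adjustment (10.0% and 7.96% of all genes). DESeq2 called 0 higher and 1 lower (2.74% and 1.89% of all genes), and limma voom 1 higher and 4 lower (18.7% and 18.8%). The summed level was 4180, 4240 and 3230 CPM in the LIN28A-labelled libraries, against 4150, 4120 and 4120 CPM in the LIN28B-labelled libraries and 3970, 4090 and 4250 CPM in control, lowest in LIN28A-labelled replicate 3. EPCAM, an adhesion molecule of epithelia, had 729, 715 and 655 CPM in the LIN28A-labelled libraries, against 977, 920.0 and 835 CPM in the LIN28B-labelled libraries (log2 fold change -0.38 ± 0.11, edgeR adjusted p = 0.133), and KRT7, a keratin, had 2.11, 3.29 and 2.101 CPM in the LIN28A-labelled libraries, against 15.8, 17.1 and 5.21 CPM in the LIN28B-labelled libraries (log2 fold change -2.34 ± 0.60, edgeR adjusted p = 0.105). Both separated the groups without passing.

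Erythroid markers, 4 of them tested, summed to 149, 159 and 64.9 CPM in the LIN28A-labelled libraries, against 190, 168 and 234 CPM in the LIN28B-labelled libraries and 185, 163 and 198 CPM in control. Among them 0 passed with edgeR, while 0 higher and 2 lower had p under 0.05 before adjustment (10.0% and 7.96% of all genes). DESeq2 called 0, and limma voom 0 higher and 2 lower (18.7% and 18.8% of all genes). TFRC, the transferrin receptor, had a log2 difference of -0.67 ± 0.29 (edgeR adjusted p = 0.26) and TAL1, a helix-loop-helix factor that is also in the mesoderm list, one of -2.13 ± 0.88 (edgeR adjusted p = 0.25). Neuronal markers, 9 of them tested, summed to 540, 571 and 944 CPM in the LIN28A-labelled libraries, against 513, 512 and 571 CPM in the LIN28B-labelled libraries and 661, 665 and 835 CPM in control, highest in LIN28A-labelled replicate 3, and of these 0 passed with edgeR, 1 higher and 0 lower had p under 0.05 before adjustment, DESeq2 called 1 higher and 0 lower, and limma voom 3 higher and 2 lower. NEFM, a neurofilament protein, differed by 1.28 ± 0.46 (edgeR adjusted p = 0.196) and the synaptic protein SNAP25 by -2.42 ± 1.15 (edgeR adjusted p = 0.301) on the log2 scale. Whether cells of these types had a part in the mesoderm and endoderm values was not tested.

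Further large falls were of receptors and ligands. F2RL1 (ENSGALG00000014984), the protease-activated receptor PAR2, had 11.4, 12.1 and 9.82 CPM in the LIN28A-labelled libraries, against 63.8, 72.7 and 26.4 CPM in the LIN28B-labelled libraries (log2 fold change -2.29 ± 0.35, edgeR adjusted p = 0.0319), with control values of 17.9, 20.0 and 12.3 CPM, between the groups. APELA (ENSGALG00000023444), a peptide ligand of the apelin receptor known from zebrafish mesendoderm, had 11.1, 9.42 and 4.62 CPM in the LIN28A-labelled libraries, against 25.7, 24.5 and 24.1 CPM in the LIN28B-labelled libraries (log2 fold change -1.56 ± 0.27, edgeR adjusted p = 0.0434). NXPH2 (ENSGALG00000029083), a neurexophilin, had 22.1, 19.6 and 15.3 CPM in the LIN28A-labelled libraries, against 45.5, 41.1 and 34.2 CPM in the LIN28B-labelled libraries (log2 fold change -1.08 ± 0.18, edgeR adjusted p = 0.0399). LIN28B-labelled replicate 3 was lower than its group for F2RL1, while the 3 LIN28B-labelled values of APELA were nearly the same.

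CCDC141 (ENSGALG00000020788) and ZBBX (ENSGALG00000028207) had the largest falls of the 12 that the rule named. CCDC141 had 3.86, 4.18 and 6.72 CPM in the LIN28A-labelled libraries, against 29.0, 25.4 and 18.4 CPM in the LIN28B-labelled libraries (log2 fold change -2.31 ± 0.26, edgeR adjusted p = 0.00935). ZBBX had 9.40, 7.37 and 3.14 CPM in the LIN28A-labelled libraries, against 51.7, 45.9 and 34.0 CPM in the LIN28B-labelled libraries (log2 fold change -2.72 ± 0.46, edgeR adjusted p = 0.0399). For CCDC141 control stood nearer the LIN28B-labelled libraries at 19.0, 18.1 and 20.5 CPM, while ZBBX was lower in control than in them at 19.9, 25.5 and 8.73 CPM. The other falls named by the rule were RAG2, a subunit of the V(D)J recombinase, with a difference of -1.18 ± 0.17 on the log2 scale (edgeR adjusted p = 0.0282), and LBH, a transcriptional cofactor, with -1.003 ± 0.13 (edgeR adjusted p = 0.0168). GPR137C and TMEM132B had log2 fold changes of -1.20 ± 0.21 (edgeR adjusted p = 0.0461) and -1.14 ± 0.20 (edgeR adjusted p = 0.0468). For GPR137C control, at 20.6, 24.1 and 31.6 CPM, lay with the LIN28A-labelled libraries.

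Germ cell identity genes gave no edgeR call in either direction. Of 29 tested, 0 passed with edgeR. Before adjustment (p under 0.05) 7 were higher and 5 lower, beside 10.0% and 7.96% of all genes. The 5 include LIN28A, the gene that names the LIN28A-labelled group. DESeq2 called 2 lower (1.89% of all genes), CXCR4 (DESeq2 adjusted p = 0.000817) and SALL4 (DESeq2 adjusted p = 0.0155). These 2 members also had the smallest edgeR p of the list, and their CPM did not overlap between the groups. With sample weights, limma voom called 8 higher and 11 lower, beside 18.7% and 18.8% of all genes (37.5% in all). CPM did not overlap for 7 higher and 7 lower members, where 11.7% and 12.6% of all tested genes did so. The median was -0.09. DDX4 (ENSGALG00000014713), the germ cell RNA helicase VASA, had 791, 815 and 516 CPM in the LIN28A-labelled libraries, against 663, 615 and 820.3 CPM in the LIN28B-labelled libraries, with a difference of 0.02 ± 0.17 on the log2 scale (edgeR adjusted p = 0.967) that turned negative in 4 fits without 1 library, at -0.07 and -0.10 without LIN28A-labelled replicates 1 and 2 and at -0.02 and -0.07 without LIN28B-labelled replicates 1 and 2. DAZL, a translational regulator of germ cells, had 1341, 1393 and 1506 CPM in the LIN28A-labelled libraries, against 1612, 1547 and 1791 CPM in the LIN28B-labelled libraries (log2 fold change -0.22 ± 0.10, edgeR adjusted p = 0.279). PRDM1 is a transcriptional repressor known for promoting germ line fate. It had 32.6, 29.4 and 35.6 CPM in LIN28A-labelled and 49.8, 53.4 and 25.9 CPM in LIN28B-labelled libraries (edgeR adjusted p = 0.423). Both DDX4 and DAZL were thus abundant in every library, and the DDX4 values of the groups overlapped. PIWIL1, an Argonaute protein that carries piRNAs, had 157, 169 and 137 CPM in the LIN28A-labelled libraries, against 226, 226 and 182 CPM in the LIN28B-labelled libraries (edgeR adjusted p = 0.158). Of 22 tested piRNA pathway genes 0 passed, while an unadjusted p under 0.05 was reached by 4 higher and 1 lower, DESeq2 called 1 higher, and limma voom 7 higher and 2 lower. TDRD6, a tudor protein of germ granules, had a log2 difference of 0.65 ± 0.18 (edgeR adjusted p = 0.116).

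Pluripotency genes leaned lower without an edgeR call. Of 25 tested, 0 passed with edgeR, and the median was -0.31. Before adjustment 0 higher and 6 lower passed (p under 0.05, beside 10.0% and 7.96% of all genes). The 6 include LIN28A, the gene that names the LIN28A-labelled group. DESeq2 called 3 lower (1.89% of all genes), and limma voom 3 higher and 9 lower (18.7% and 18.8% of all genes). NANOG had 608, 617 and 449 CPM in the LIN28A-labelled libraries, against 938, 966 and 632 CPM in the LIN28B-labelled libraries, or -0.60 ± 0.18 on the log2 scale (edgeR adjusted p = 0.152). SALL4, a zinc finger factor of stem and germ cells, had 436, 461 and 251 CPM in the LIN28A-labelled libraries, against 662, 644 and 698 CPM in the LIN28B-labelled libraries (log2 fold change -0.80 ± 0.21, edgeR adjusted p = 0.103). In both genes LIN28A-labelled replicate 3 was the lowest of all libraries compared. MYC had 5.36, 4.94 and 2.07 CPM in the LIN28A-labelled libraries, against 1.85, 1.79 and 2.47 CPM in the LIN28B-labelled libraries (edgeR adjusted p = 0.211), with overlap in replicate 3. POU5F3 could not be given, since its symbol is not among those of the tested genes.

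Targets of let-7, which LIN28 proteins are known to protect, showed no shared direction. Of 65 tested, 32 lay above and 33 below 0, and the median was -0.01, beside 0.0039 over all genes. With edgeR 0 passed, while 11 were higher and 13 lower before adjustment (p under 0.05, beside 10.0% and 7.96% of all genes). The 13 include LIN28B, the gene that names the LIN28B-labelled group. DESeq2 called 4 higher and 7 lower (2.74% and 1.89% of all genes), and limma voom 21 higher and 18 lower (18.7% and 18.8%). CPM did not overlap for 7 higher and 15 lower targets, where 11.7% and 12.6% of all tested genes did so. The smallest p-values belonged to the homeobox factor PBX3, with a log2 difference of 0.76 ± 0.18 (edgeR adjusted p = 0.0958), and to collagen III, COL3A1, with 0.71 ± 0.17 (edgeR adjusted p = 0.0958). Of 13 tested genes of LIN28 and miRNA processing 0 passed, while 0 were higher and 3 lower before adjustment (p under 0.05). Those 3 were LIN28A and LIN28B, the genes that name the groups, and TRIM71. DESeq2 called 1 lower, and limma voom 1 higher and 3 lower. TRIM71, a let-7 target and RNA-binding ubiquitin ligase, had 147, 148 and 67.8 CPM in the LIN28A-labelled libraries, against 259, 226 and 349 CPM in the LIN28B-labelled libraries, or -1.20 ± 0.32 on the log2 scale (edgeR adjusted p = 0.109). It had the smallest p of the miRNA processing list, and the groups did not overlap.

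Medians of ribosomal protein and mitotic genes had opposite signs in same-numbered libraries 1 and 2 and in those numbered 3. The numbers are not read as pairs. Relative to the control mean, the ribosomal median was -0.14, -0.17 and 0.09 in LIN28A-labelled and 0.13, 0.16 and -0.29 in LIN28B-labelled libraries. For mitotic genes it was -0.21, -0.19 and -0.08 against -0.58, -0.65 and 0.06, so LIN28B-labelled replicate 3 alone stood above the LIN28A-labelled libraries. Of 67 tested ribosomal proteins 54 lay below 0 with a median of -0.08, but same-numbered libraries gave -0.28, -0.31 and 0.39. With edgeR 0 passed, while 0 higher and 2 lower passed before adjustment (p under 0.05, beside 10.0% and 7.96% of all genes). DESeq2 called 0, and limma voom, with sample weights of 0.0809 for LIN28A-labelled and 0.233 for LIN28B-labelled replicate 3, called 60 lower (18.8% of all genes). RPL38 and RPL37 had the smallest p-values, with log2 differences of -0.30 ± 0.10 (edgeR adjusted p = 0.172) and -0.45 ± 0.16 (edgeR adjusted p = 0.194). The 34 tested genes of G2 and mitosis had a median of 0.17, with 0.34, 0.42 and -0.19 in same-numbered libraries. Of these 0 passed with edgeR, 1 was higher and 1 lower before adjustment (p under 0.05), DESeq2 called 1 lower, and limma voom 26 higher (18.7% of all genes) and 1 lower. The checkpoint protein BUB3 differed by 0.48 ± 0.21 (edgeR adjusted p = 0.274) and the phosphatase CDC25A by -0.51 ± 0.14 (edgeR adjusted p = 0.125) on the log2 scale. Between same-numbered libraries the medians of many lists kept 1 sign, among them the ATF4, guidance, mesoderm and endoderm, matrix, oxidative phosphorylation and WNT lists. For the matrix list this rested on which libraries were matched. Relative to the control mean, its median was 0.593, 0.458 and -0.065 in LIN28A-labelled and 0.137, 0.242 and -0.080 in LIN28B-labelled libraries. LIN28A-labelled replicate 3 thus lay below LIN28B-labelled replicates 1 and 2.

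**Figure D4:**
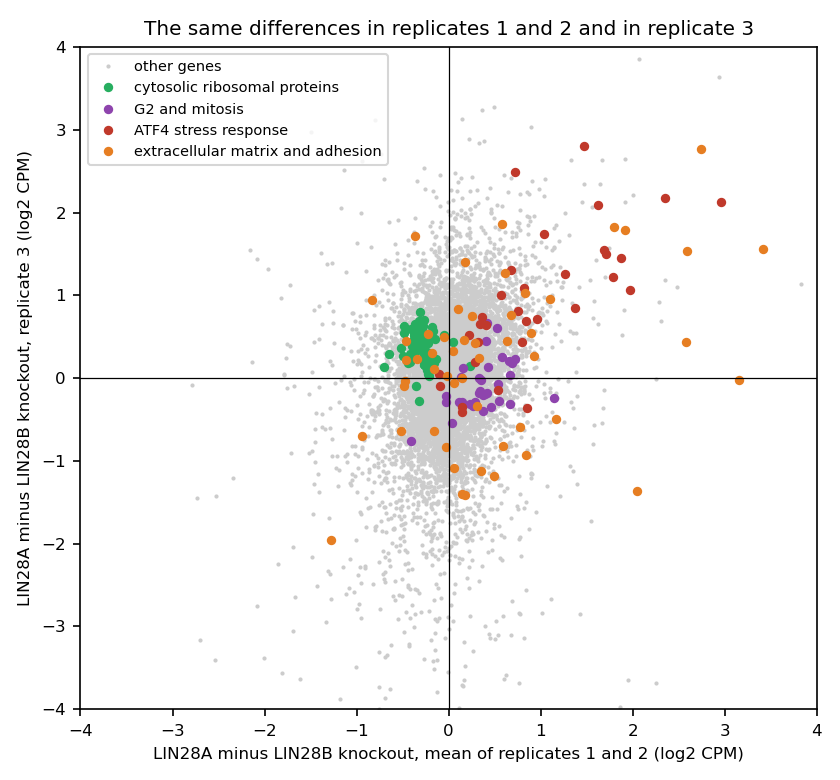
Difference in log2 CPM between LIN28A-labelled and LIN28B-labelled libraries in replicate 3 (vertical axis) against the mean of that in replicates 1 and 2 (horizontal axis) for genes whose average log2 CPM reached 3, with 4 lists coloured and axes held to 4 units either way. Most ATF4 stress genes (red) lie to the upper right, whereas ribosomal protein genes (green) lie mostly left of 0 and above it.

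The remaining lists gave few edgeR calls. Over all genes, an unadjusted p under 0.05 was reached by 10.0% higher and 7.96% lower. DESeq2 called 2.74% higher and 1.89% lower, and limma voom 18.7% and 18.8%. The list counts below stand beside these shares. Of 43 tested WNT genes SFRP4 alone was called by edgeR, beside 0.375% of all genes called higher, and the median was -0.11. Before adjustment (p under 0.05) 3 were higher and 12 lower, DESeq2 called 2 higher and 3 lower, and limma voom 5 higher and 15 lower. CPM did not overlap for 4 higher and 11 lower members, where 11.7% and 12.6% of all tested genes did so. For 42 activin, nodal and BMP genes 0 passed, 4 higher and 6 lower passed before adjustment (p under 0.05), DESeq2 called 3 higher and 5 lower, and limma voom 7 higher and 14 lower. The smallest p-values belonged to CER1, given above as lower, and to SMAD1, a BMP signal transducer. SMAD1 had a log2 difference of 0.74 ± 0.19 (edgeR adjusted p = 0.0992). For 27 cholesterol genes 0 passed, 7 higher and 1 lower passed before adjustment (p under 0.05), DESeq2 called 0, limma voom called 14 higher and 1 lower, and the median was 0.24. The enzymes MSMO1 and FDFT1 had log2 differences of 0.51 ± 0.15 (edgeR adjusted p = 0.15) and 0.38 ± 0.13 (edgeR adjusted p = 0.176). Aminoacyl-tRNA synthetases, 21 of them tested, had a median of 0.23, with 0 passing. An unadjusted p under 0.05 was reached by 9 higher and 0 lower, with 5 called higher by DESeq2 and 10 higher and 1 lower by limma voom. Among these, the tyrosine enzyme YARS had 129, 134 and 155 CPM in the LIN28A-labelled libraries, against 79.1, 73.3 and 111 CPM in the LIN28B-labelled libraries (log2 fold change 0.66 ± 0.16, edgeR adjusted p = 0.0931) with no overlap between the groups. The threonine enzyme TARS had a log2 difference of 0.54 ± 0.15 (edgeR adjusted p = 0.116).

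The lists of ER folding and of ectoderm held 1 called gene each, HERPUD1 among 26 tested and SOX9 among 32 tested. Both are given above and were higher, beside 0.375% of all genes, and the list medians were 0.09 and -0.07. Amino acid transporters, 23 tested, share 6 genes with the ATF4 list (26.1% of the transporters, 17.6% of the ATF4 list). For them 0 passed with edgeR, while 4 higher and 1 lower had p under 0.05 before adjustment (10.0% and 7.96% of all genes). DESeq2 called 2 higher and 1 lower (2.74% and 1.89% of all genes), and limma voom 8 higher and 4 lower (18.7% and 18.8%). SLC7A5, a carrier of large neutral amino acids, had 300.0, 292 and 514 CPM in the LIN28A-labelled libraries, against 142, 107 and 215 CPM in the LIN28B-labelled libraries (log2 fold change 1.25 ± 0.32, edgeR adjusted p = 0.105), with the groups apart, and SLC38A7 differed by -0.95 ± 0.29 (edgeR adjusted p = 0.153).

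Growth factor lists gave no call by edgeR. Among 29 FGF and ERK targets 0 passed with edgeR, and the median was -0.21. An unadjusted p under 0.05 was reached by 2 higher and 3 lower (10.0% and 7.96% of all genes). DESeq2 called 0 higher and 1 lower (2.74% and 1.89% of all genes), and limma voom 4 higher and 9 lower (18.7% and 18.8%). CCND1, the D-type cyclin, had 52.7, 51.5 and 33.7 CPM in the LIN28A-labelled libraries, against 74.3, 73.4 and 67.9 CPM in the LIN28B-labelled libraries (log2 fold change -0.65 ± 0.16, edgeR adjusted p = 0.103). Among 30 genes of insulin, IGF and mTOR signalling 0 passed with edgeR, 3 higher and 5 lower had p under 0.05 before adjustment, DESeq2 called 1 higher and 1 lower, and limma voom 7 higher and 9 lower. The growth factor IGF2 had 6.09, 5.12 and 1.83 CPM in the LIN28A-labelled libraries, against 13.7, 18.1 and 8.42 CPM in the LIN28B-labelled libraries (log2 fold change -1.62 ± 0.44, edgeR adjusted p = 0.116), lower in every LIN28A-labelled library than in any LIN28B-labelled one, and the forkhead factor FOXO1 differed by 1.21 ± 0.32 (edgeR adjusted p = 0.112).

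Genes of DNA replication, meiosis and DNA methylation were not called by edgeR. Of 46 S phase genes 0 passed with edgeR. An unadjusted p under 0.05 was reached by 1 higher and 4 lower (10.0% and 7.96% of all genes). DESeq2 called 1 higher and 1 lower (2.74% and 1.89% of all genes), and limma voom 9 higher and 8 lower (18.7% and 18.8%). PRIM1, a primase subunit, differed by 0.65 ± 0.15 (edgeR adjusted p = 0.0827) and RRM2, a subunit of ribonucleotide reductase, by -0.49 ± 0.13 (edgeR adjusted p = 0.102) on the log2 scale. In 20 meiosis genes 0 passed with edgeR, while 6 higher and 2 lower had p under 0.05 before adjustment, beside the same 10.0% and 7.96%. DESeq2 called 0, and limma voom 5 higher and 3 lower (18.7% and 18.8% of all genes). MEIOC and MSH4 differed by 1.21 ± 0.42 (edgeR adjusted p = 0.19) and -0.59 ± 0.20 (edgeR adjusted p = 0.184). For 17 DNA methylation genes 0 passed with edgeR, 0 higher and 3 lower had p under 0.05 before adjustment, DESeq2 called 0 higher and 1 lower, and limma voom 3 higher and 5 lower. The de novo methyltransferases DNMT3A and DNMT3B differed by -0.64 ± 0.19 (edgeR adjusted p = 0.139) and -0.42 ± 0.14 (edgeR adjusted p = 0.18).

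Fatty acid and interferon genes gave no edgeR call either. Of 15 fatty acid genes 0 passed with edgeR. An unadjusted p under 0.05 was reached by 1 higher and 2 lower (10.0% and 7.96% of all genes). DESeq2 called 0 higher and 1 lower (2.74% and 1.89% of all genes), and limma voom 4 higher and 4 lower (18.7% and 18.8%). The desaturase FADS1 had 205, 209 and 208 CPM in the LIN28A-labelled libraries, against 314, 306 and 269.8 CPM in the LIN28B-labelled libraries (log2 fold change -0.52 ± 0.10, edgeR adjusted p = 0.0603), and the elongase ELOVL1 differed by -0.44 ± 0.16 (edgeR adjusted p = 0.213). Of 29 interferon response genes 0 passed with edgeR, 4 higher and 3 lower had p under 0.05 before adjustment, DESeq2 called 0, and limma voom 3 higher and 7 lower. IFI35 (ENSGALG00000048091, 1 of 2 identifiers with that symbol) and the RNA sensor gene IFIH1 differed by 0.44 ± 0.16 (edgeR adjusted p = 0.203) and -0.58 ± 0.21 (edgeR adjusted p = 0.194).

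**Figure D5:**
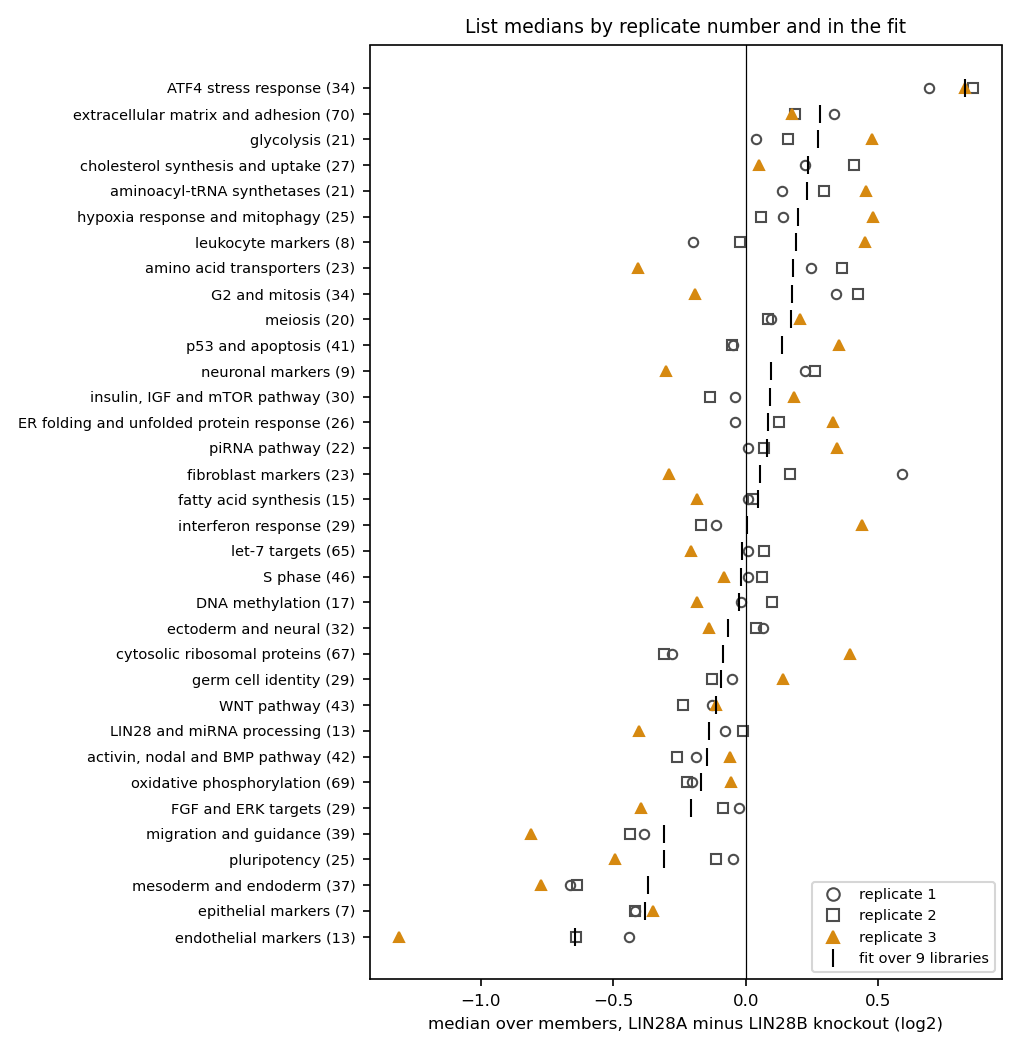
Median over the tested members of each list of the difference LIN28A minus LIN28B knockout (log2), for replicates 1 (open circles), 2 (open squares) and 3 (filled triangles) and in the fit over 9 libraries (vertical ticks), with the number of tested members in brackets. The ATF4 stress list has the highest median of the fit, 0.83, with its 3 replicates between 0.69 and 0.86, and ribosomal proteins are negative in replicates 1 and 2 and positive in replicate 3.

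Control libraries lay between the groups for most called genes. The control mean stood between both group means in 55 of 58 genes higher and in 20 of 22 genes lower in the LIN28A-labelled libraries. These genes were picked by their difference between both knockouts, which by itself favours a control mean between them. The share over all tested genes was not computed, so these counts are a description. Among the 58 it was nearer to the LIN28A-labelled mean in 35 and nearer to the LIN28B-labelled mean in 23. Among the 22 it was nearer to the LIN28A-labelled mean in 5 and to the LIN28B-labelled mean in 17. PFKFB3, TSC22D4 and DLC1 are examples in which the control mean lay nearer to the LIN28A-labelled mean. DLC1 had 13.1, 13.0 and 15.5 CPM in the LIN28A-labelled libraries, against 3.73, 4.83 and 5.71 CPM in the LIN28B-labelled libraries, beside 15.6, 15.6 and 13.3 CPM in control (edgeR adjusted p = 0.0193). CDKN1A, DDR2 and SEC24D, a coat protein of vesicles leaving the endoplasmic reticulum, are examples in which the control mean lay nearer to the LIN28B-labelled mean. SEC24D had 39.8, 39.6 and 33.9 CPM in the LIN28A-labelled libraries, against 20.3, 19.0 and 18.8 CPM in the LIN28B-labelled libraries, beside 20.9, 22.7 and 20.0 CPM in control (edgeR adjusted p = 0.0204). DLC1 and SEC24D were chosen after their values were seen.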

How the data were processed

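The authors deposited counts of reads per Ensembl gene, 1 table per library, made from poly(A) RNA with a directional library kit, per the labels' protocols. Per the submitters' processing notes, the tools were HISAT2 2.1.0, featureCounts 2.0.3, edgeR 3.38.4 and DESeq2 1.36.0, and the genome builds galGal6 and GRCg6a. Strand setting and annotation release were not given in the sources used here. Near-identical copies and overlapping genes may therefore share or lose reads. The authors' deposited tables of each knockout against control hold log2 fold changes, p-values, a test statistic score and a mean signal per gene, per the file headers. These tables were used only to pair 13354 of 24356 identifiers with symbols. There, 10 symbols had been turned into dates, and they are not named. For the LIN28B-labelled libraries, the description field points to the LIN28A knockout table. The reason was not tested.

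Counts were tested with edgeR 4.0.16 (R 4.3.3): with default filterByExpr and TMM factors, group means of all 9 libraries were fitted by quasi-likelihood, followed by an F test of LIN28A minus LIN28B knockout with Benjamini-Hochberg adjusted p under 0.05. The common biological coefficient of variation was 0.265. Standard errors come from the F statistic. CPM is TMM-scaled, and medians per replicate use log2 CPM with a prior count of 2. Alternatives were the 6 knockout libraries alone, a replicate block, DESeq2 1.42.0, median-of-ratios scaling, 2 other count filters, leaving out each library, replicates 1 and 2 only, and limma 3.58.1 voom with sample weights. The steps were checked on simulated counts.

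The text names LIN28A and LIN28B, then, of called genes that carry a symbol, reach an average log2 CPM of 3 and do not overlap, the 12 that rose and the 12 that fell most, up to 3 called members of each of 36 lists (or the 2 smallest p where none was called), and ASNS, ATF4, CDKN1A, COL1A1, CXCR4, DAZL, DDX4, MYC, NANOG, PIWIL1, POU5F3 and PRDM1. Another 29 genes are said in the text to be picked after their values were seen. COL4A1 and COL4A2, also chosen after their values were seen, are given by their replicate differences alone and are not among the 29. The comparison, lists and rule were chosen with earlier results of these data known. Sequences and coordinates were not used here.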

Additional observations from a re-analysis of the deposited data

How the results depend on the processing

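The count of called genes moved with most settings. Against 80 calls (58 higher and 22 lower in LIN28A-labelled libraries), the 6 knockout libraries alone gave 9 (8 and 1), DESeq2 949 (562 and 387), no count filter 136 (85 and 51), replicates 1 and 2 only 6196 (3178 and 3018), and limma voom with sample weights 5796 (2894 and 2902). Median-of-ratios scaling gave 78 and a filter on CPM 81. Leaving out 1 library in turn gave 0 to 474 calls, 0 to 305 higher and 0 to 169 lower. The causes were not tested. The replicate numbers share no stated origin, and with the number as a replicate block 890 genes were called (549 and 341). Deviations of same-numbered knockout libraries from their group means correlated at 0.0331, 0.0517 and 0.0723 over all tested genes and at 0.130, 0.0873 and 0.124 over those whose average log2 CPM reached 3. These correlations were computed after the number of calls under the block was known. Over all tested genes, LIN28A-labelled replicates 1 and 2 both correlated best with LIN28B-labelled replicate 2, and replicate 3 with replicate 3. The block is not read as pairing.

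LIN28A passed with replicates 1 and 2 only, at -0.64 on the log2 scale (edgeR adjusted p = 7.35e-10), and with limma voom at -0.70 (adjusted p = 0.00334). LIN28B passed in the same settings, at -0.48 (edgeR adjusted p = 2.76e-05) and -0.45 (limma voom adjusted p = 0.00103). Both kept their direction in these settings. Replicates 1 and 2 differed by a root mean square of only 0.137 (log2) in the LIN28A-labelled and 0.164 in the LIN28B-labelled libraries. The fit with them alone called 39.5% of its genes, and its p-values leave out the wider spread of replicate 3. limma voom, which gave replicate 3 of both groups low weights, called 37.5%. All alternatives were run for the 82 genes of the naming rule and for the 29 picked later, and DDX4 and COL1A2 were the ones that changed sign. The COL1A2 log2 fold change was -0.29 and -0.34 without LIN28A-labelled replicates 1 and 2 and -0.23 and -0.31 without LIN28B-labelled replicates 1 and 2, but 1.05 without LIN28B-labelled replicate 3, 1.58 with replicates 1 and 2 only (edgeR adjusted p = 7.75e-17) and 1.38 with limma voom (adjusted p = 0.00278). The DDX4 log2 fold change stood at -0.07 and -0.10 without LIN28A-labelled replicates 1 and 2 and at -0.02 and -0.07 without LIN28B-labelled replicates 1 and 2. It reached 0.20 without LIN28A-labelled replicate 3, and no fit without 1 library put it past the threshold, whereas replicates 1 and 2 only (0.33, edgeR adjusted p = 3.93e-07) and limma voom (0.29, adjusted p = 0.0027) did. With a floor of 3 counts per library and 3 libraries per group, depth limits genes under about 0.1 CPM, and an exact permutation test of 3 against 3 libraries cannot go below p = 0.1.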
